A study of Mus musculus with 12 samples.

Results

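The *Hox* genes of the developing mouse lung were followed in RNA from whole lungs. A gene was taken as a member when its mouse symbol was Hox, a cluster letter from a to d and a number, which gave 39 of the 51825 genes with a value in CPM, the deposited expression unit, in which the reads of a gene are scaled to the mapped reads of the library. Of these, 17 were also among the 16152 genes of the counts table, which holds the genes that the authors kept as expressed, and the other 22 are called not expressed here, with their reads given below. The lungs came from C57BL/6 mice of both sexes, without transgene or treatment, on embryonic days E15.5 and E18.5, before birth, and on postnatal days P5 and P8. There were 3 libraries at each time-point, 12 in all, and the lungs of a time-point came from one litter, so a litter and a time-point cannot be told apart. The p-values measure the spread between lungs of a litter only. Each library held between 41337443 and 53901957 counted reads.

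*Hox* genes encode homeodomain transcription factors that give the cells of the embryo their position along the head-to-tail axis. They lie in 4 clusters, in which the number of a gene gives its place in the row: low numbers sit at the 3′ end, are switched on early and reach far towards the head, and high numbers sit at the 5′ end and act in the trunk, limbs and tail. Genes with the same number in different clusters are paralogues and often share functions. In the lung, *Hoxa5* and *Hoxb5* are known for their part in the mesenchyme, where they act on airway branching and on the later formation of alveoli.

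In the GRCm38 annotation (GENCODE M21; the authors counted on M14 of the same build) the *Hoxa* cluster lies on chromosome 6 with 11 members. The *Hoxb* cluster lies on chromosome 11 with 10 members between bases 96194316 and 96368256, the *Hoxc* cluster on chromosome 15 with 9 members between bases 102921103 and 103036852, and the *Hoxd* cluster on chromosome 2 with 9 members between bases 74668310 and 74765142. The counts table held 7 *Hoxa* genes (*Hoxa2* to *Hoxa7* among them), 7 *Hoxb* genes (*Hoxb2* to *Hoxb8*), 2 *Hoxc* genes (*Hoxc4* and *Hoxc5*) and 1 *Hoxd* gene (*Hoxd8*). None of the members at positions 9 to 13 was in it.

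The 250 bases before the start of 4 members are shown because these genes carry the main contrasts below: *Hoxa5* had the highest level, *Hoxb4* and *Hoxb8* belong to the cluster in which most members fell, and *Hoxc4* is the highest member of a cluster close to the limit of detection. The sequences are those of RefSeq on GRCm38.p6, read 5′ to 3′ on the strand of the gene, and the RefSeq table used here held windows for 22 of the 39 members. Capitals mark every match, on either strand, to 5 short motifs. The letters CCAAT are the CCAAT box. The TATA box was searched as TATAAA. The GC box was searched as GGGCGG. The core bound by Meis factors was searched as TGACAG, and the element that Pbx and Hox proteins bind together, called the Pbx-Hox motif here, as TGATNNAT. No matches overlap in these 4 windows.
*Hoxa5*, chr6:52204588-52204837, minus strand: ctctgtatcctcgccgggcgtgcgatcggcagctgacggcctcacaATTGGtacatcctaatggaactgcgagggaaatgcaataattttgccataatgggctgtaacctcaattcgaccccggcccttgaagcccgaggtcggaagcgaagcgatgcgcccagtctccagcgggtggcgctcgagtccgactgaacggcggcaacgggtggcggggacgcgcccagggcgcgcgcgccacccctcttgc
*Hoxb4*, chr11:96318017-96318266, plus strand: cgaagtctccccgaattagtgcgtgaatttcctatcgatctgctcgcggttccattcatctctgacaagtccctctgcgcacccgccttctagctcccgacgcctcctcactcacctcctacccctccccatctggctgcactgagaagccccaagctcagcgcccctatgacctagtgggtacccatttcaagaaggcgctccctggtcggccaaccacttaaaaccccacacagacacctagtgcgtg
*Hoxb8*, chr11:96281655-96281904, plus strand: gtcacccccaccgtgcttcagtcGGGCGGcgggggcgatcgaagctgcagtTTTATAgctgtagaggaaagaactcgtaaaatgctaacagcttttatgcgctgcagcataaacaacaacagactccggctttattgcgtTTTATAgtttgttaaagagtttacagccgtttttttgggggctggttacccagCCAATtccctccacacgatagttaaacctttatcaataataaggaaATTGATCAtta
*Hoxc4*, chr15:103034145-103034394, plus strand: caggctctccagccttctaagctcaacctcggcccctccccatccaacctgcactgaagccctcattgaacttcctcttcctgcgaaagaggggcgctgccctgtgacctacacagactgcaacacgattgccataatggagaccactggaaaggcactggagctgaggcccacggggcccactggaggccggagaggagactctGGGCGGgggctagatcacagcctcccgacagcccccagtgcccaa

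The *Hoxa5* window held 1 match, to the CCAAT box, beginning 204 bases before the start. The *Hoxb8* window held a CCAAT box, a GC box, a Pbx-Hox motif and 2 TATA boxes, whereas the *Hoxb4* window held none of these letters and the *Hoxc4* window held a GC box alone. Among all 32851 promoter windows of the same length, 33.8% held the CCAAT box, 12.4% the TATA box, 32.7% the GC box, 15.9% the Meis core and 7.68% the Pbx-Hox motif. Among the 24 windows of *Hox* members the shares in the same order were 58.3%, 16.7%, 41.7%, 8.33% and 16.7%. The 4 sequences also differed in base composition. *Hoxa5* was 63.6% G and C with 28 CG pairs, *Hoxb4* 58.0% with 14, *Hoxc4* 62% with 8 and *Hoxb8* 44.4% with 12, beside medians of 52.4% and 6 over all windows. A match of letters is a description of the sequence only.

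Taken over all members, *Hox* reads became fewer from the embryonic to the postnatal lung. The CPM of the 39 genes summed to 306 ± 14.5 (SD, n = 3) on E15.5, 242 ± 10.4 on E18.5, 184 ± 17.1 on P5 and 176 ± 8.74 on P8, and no library of P5 or P8 reached the lowest of E15.5 or E18.5. In RNA from a whole organ, fewer cells of a type and less RNA per cell cannot be told apart, and this holds for every value here. Summed levels of lung epithelium, endothelium and leukocyte markers moved over the same time-points (6 genes each): epithelial markers summed to between 1256 and 1486 CPM on E15.5 and between 10366 and 12398 CPM on P8, and endothelial markers to between 740.4 and 824 and between 2003 and 2392 CPM. In the edgeR test described below, 2 of the 6 epithelial genes rose, 2 fell and 2 did not pass from E15.5 to P8. The median log2 fold change over these 6 was 0.08, so the epithelial sum does not stand for its list. All 6 endothelial genes rose. The 10 mesenchymal markers lay between 4439 and 5188 CPM on E15.5, between 4312 and 4556 on E18.5, between 4347 and 4813 on P5 and between 6270 and 6733 CPM on P8. From P5 to P8, 4 of the 10 mesenchymal genes rose, 4 fell and 2 did not pass. Their median log2 fold change was -0.22, so the mesenchymal sum does not stand for its list in this step. The part of such marker shifts in the *Hox* levels was not tested.

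The 2 large clusters did not move alike. *Hoxb* summed to 143 ± 7.54 CPM on E15.5, 107 ± 13.2 on E18.5, 61.3 ± 5.34 on P5 and 55.9 ± 7.25 on P8, a log2 change of -1.36 from E15.5 to P8. *Hoxa* summed to 157 ± 8.44, 132 ± 3.53, 121 ± 11.8 and 116 ± 4 CPM, a log2 change of -0.44. These changes are differences of summed levels, given without a test. In the embryonic libraries *Hoxa* took between 50.5% and 58.8% of all *Hox* CPM and *Hoxb* between 40.3% and 47.8%. In the postnatal libraries *Hoxa* took between 64.9% and 67.9% and *Hoxb* between 29.5% and 34.5%, so that the ranges before and after birth did not overlap for either cluster. *Hoxc* summed to 4.10 ± 0.094 CPM on E15.5, 1.73 ± 0.239 on E18.5, 0.272 ± 0.113 on P5 and 1.87 ± 1.23 on P8, and *Hoxd* to 1.15 ± 0.431, 0.801 ± 0.18, 1.31 ± 0.417 and 1.81 ± 0.951. The last values of both small clusters came from libraries that stood apart, described further on.

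**Figure D1:**
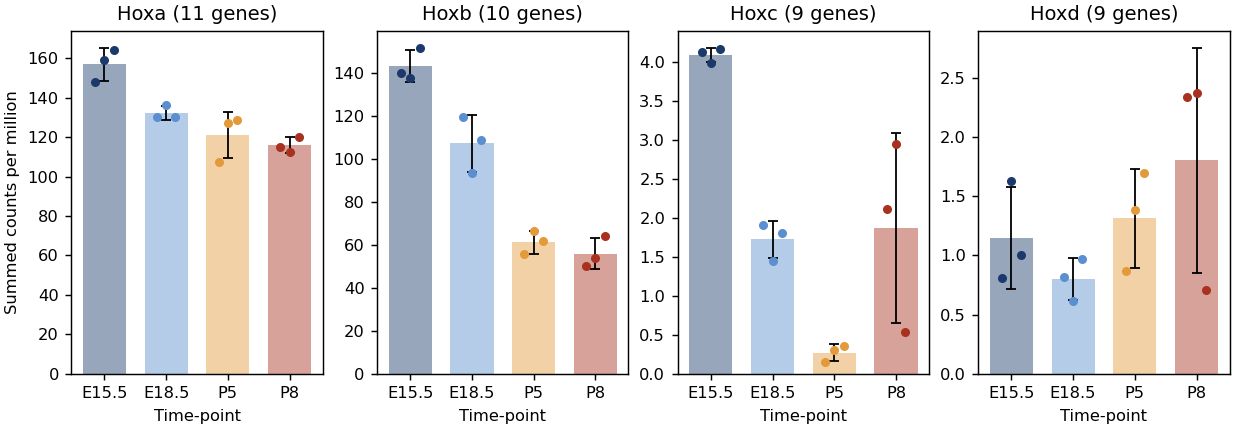
Summed CPM of all members of each *Hox* cluster (y axis, from 0, a scale for each panel) at the 4 time-points (x axis); bars are means, whiskers SD and points the 3 libraries. *Hoxb* went from 143 on E15.5 to 55.9 on P8 and *Hoxa* from 157 to 116, while the P8 libraries of *Hoxc* and *Hoxd* lie far apart.

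Positions 4 to 6 carried most of the *Hox* RNA. *Hoxa5* alone made up 36.4 ± 0.276% of the CPM of all members on E15.5, 37.6 ± 3.19% on E18.5, 43.4 ± 2.29% on P5 and 43.5 ± 1.95% on P8. *Hoxa5* and *Hoxb5* together made up between 55.8% and 57.4% at the 4 time-points. Per kilobase of exon, the scale on which genes can be set side by side, *Hoxa5* was first on E15.5 with 59.3 ± 3.26 CPM, followed by *Hoxb5* with 21.6 ± 1.87, *Hoxb6* with 10.9 ± 0.902, *Hoxb4* with 10.1 ± 0.340 and *Hoxa4* with 6.41 ± 0.757. The libraries of *Hoxb6* and *Hoxb4* overlapped, as did those of *Hoxa4*, *Hoxa6* and *Hoxa2* from each to the next in the order, whereas *Hoxa5* and *Hoxb5* stood clear of the gene after them. At P8 the order on this scale was *Hoxa5* with 40.6 ± 1.57, *Hoxb5* with 7.78 ± 1.10, *Hoxa4* with 5.05 ± 0.393 and *Hoxb4* with 4.70 ± 0.579, the latter pair again overlapping. *Hoxb6* stood sixth there, with 3.63 ± 0.657, after *Hoxa2* with 3.80 ± 0.853, and these overlapped. Near the low end on E15.5 were *Hoxc5* and *Hoxd8*, at 0.597 ± 0.0953 and 0.244 ± 0.162.

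**Figure D2:**
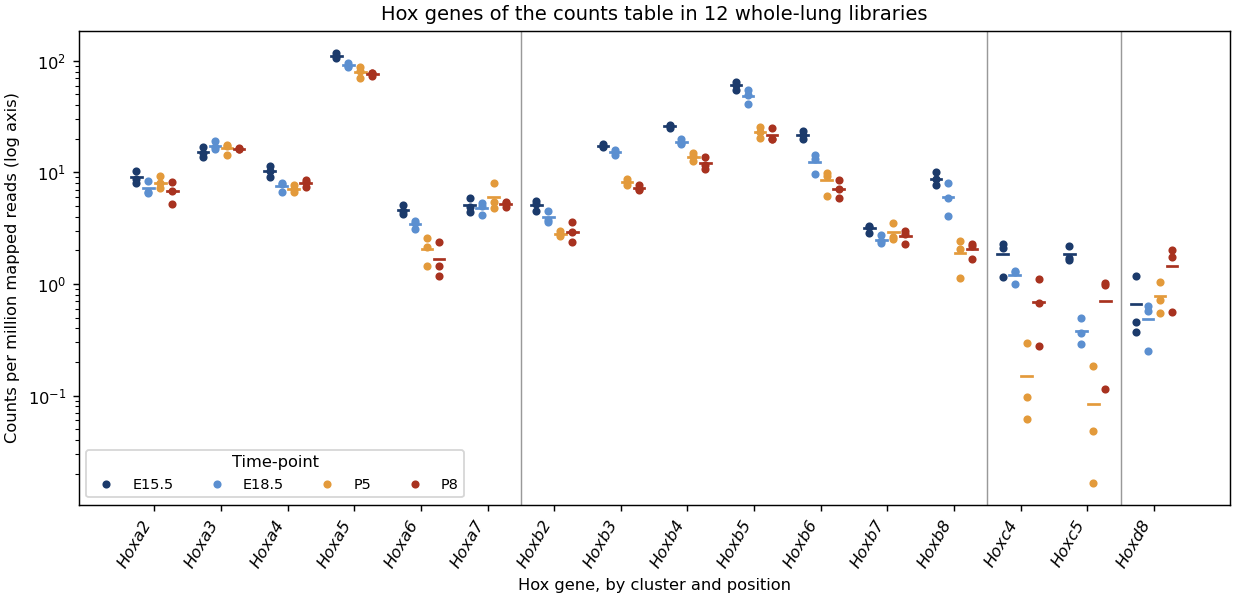
Level of 16 *Hox* genes of the counts table in each of the 12 libraries, in CPM on a log axis; points are libraries, short lines means of 3, and genes follow cluster and position on the x axis. *Hoxa5* is highest, and *Hoxb3* to *Hoxb6* and *Hoxb8* are lower on P8 than on E15.5.

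Differences between time-points were tested on the counts with edgeR's quasi-likelihood test in a fit of all 12 libraries over 15994 genes. A gene is said to have risen or fallen when its false discovery rate (FDR, Benjamini-Hochberg over all genes tested) was under 0.05, and to be past both cutoffs when its absolute log2 fold change was also above 1. All 17 members of the counts table passed the filter on low values of at least 1 CPM in 3 libraries. *Hoxc4* passed it through its embryonic libraries and *Hoxc5* through those of E15.5. *Hoxd8* passed it only through E15.5 replicate 2, P5 replicate 3 and P8 replicates 1 and 2. From E15.5 to P8, 9 of the 17 fell and none rose in the edgeR fit, where 0 rose at an unadjusted p under 0.05 and DESeq2 called 1 (*Hoxd8*, FDR = 0.047). Among all genes tested, 38.7% fell and 37.6% rose at this FDR, so the share of members that fell, 52.9%, stood not far above the rest. Past both cutoffs were 7 members, all lower, where 11.5% of all genes were lower and 20.9% higher. The median log2 fold change was -0.72 over the 17 members and -0.02 over all genes. Of the 7 that passed both cutoffs, 5 were *Hoxb* genes (of 7 tested), 1 was *Hoxa6* (of 7 *Hoxa* genes) and 1 was *Hoxc4*. Genes of a cluster lie side by side and are not independent of each other.

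The median log2 fold change over the 17 members was -0.36 in the step before birth and -0.35 in the step that spans birth (E18.5 to P5). The clusters differed in this. Before birth 16 of the 17 had a negative log2 fold change, with medians of -0.31 over *Hoxa* and -0.36 over *Hoxb*. Across birth 10 of the 17 had a negative one, with medians of 0.02 over *Hoxa* and -0.46 over *Hoxb*. Of the 7 *Hoxa* members 2 were negative in that step. Across birth 8 members fell, where 35.7% of all genes did, and none rose, where 35.4% did. At an unadjusted p under 0.05, 1 was higher in edgeR (*Hoxa7*), and DESeq2 called the same gene. Past both cutoffs were 3 of them (*Hoxb8*, *Hoxc4* and *Hoxc5*), where 9.34% of all genes were past both cutoffs and lower. From E15.5 to E18.5, 5 members fell (*Hoxa4*, *Hoxa5*, *Hoxb4*, *Hoxb6* and *Hoxc5*), where 9.87% of all genes did, and none rose, where 11.6% did (0 at an unadjusted p under 0.05 in edgeR and 0 by DESeq2). *Hoxc5* alone was past both cutoffs there, beside 1.46% of all genes that were lower and 1.59% that were higher, and this call was lost when E15.5 replicate 1, E15.5 replicate 2 or any 1 of the E18.5 libraries was left out, which gave a count of 0. From P5 to P8 no member fell in the edgeR fit, where 8.21% of all genes did, and *Hoxb3* and *Hoxb4* had an unadjusted p of 0.04 each. DESeq2 called 0 lower in this step, and *Hoxb4* passed in edgeR without P8 replicate 3 (log2 fold change -0.32, FDR = 0.027). In the same step 2 members rose (*Hoxc4* and *Hoxc5*), both past both cutoffs, where 9.75% of all genes rose and 2.88% were higher and past both (0.0875% were lower and past both). In 6 of the 17 genes all 6 embryonic libraries lay above all 6 postnatal ones, beside 32.5% of all genes tested, and these were *Hoxa6*, *Hoxb2*, *Hoxb3*, *Hoxb4*, *Hoxb5* and *Hoxb8*. No member lay lower in all embryonic libraries, where 26.6% of all genes did.

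The *Hoxa* members at positions 2 to 4 and 7 showed small differences. *Hoxa2*, which patterns the second branchial arch, lay between 5.19 and 10.3 CPM with a log2 fold change of -0.35 (FDR = 0.078, interval from -0.73 to 0.04). *Hoxa3*, which acts in the thymus and parathyroid, held means of 15.2 ± 1.68, 17.4 ± 1.46, 16.4 ± 1.88 and 16.4 ± 0.0522 CPM at the 4 time-points, with a log2 fold change of 0.18 (FDR = 0.15, interval from -0.07 to 0.43). The interval of *Hoxa3* leaves room for a fall of up to 0.07 or a rise of up to 0.43 on the log2 scale. *Hoxa4* was at 10.2, 11.4 and 9.03 CPM in the E15.5 libraries and at 6.67, 7.83 and 7.98 CPM on E18.5, a fall of 0.44 on the log2 scale (SE 0.12, edgeR FDR = 0.026). The call was lost without E15.5 replicate 1 (FDR = 0.058), E15.5 replicate 2 (0.097), E18.5 replicate 1 (0.095) or E18.5 replicate 2 (0.057), and on the recovered reads (0.061). It was at 8.05 ± 0.627 CPM on P8, and over the whole period its log2 fold change of -0.27 did not pass the FDR (0.067). Single libraries moved 3 of these genes across the threshold over the whole period: *Hoxa2* passed without P8 replicate 3 (log2 fold change -0.51, FDR = 0.015), *Hoxa3* without E15.5 replicate 3 (0.27, FDR = 0.044), and *Hoxa4* without E15.5 replicate 3 (FDR = 0.0355) or P8 replicate 1 (FDR = 0.039). *Hoxa7* was at 5.07 ± 0.706 CPM on E15.5 and 5.20 ± 0.245 CPM on P8, with a log2 fold change of 0.11 (FDR = 0.6, interval from -0.33 to 0.55). Across birth its log2 fold change of 0.42 did not pass in edgeR (FDR = 0.067) but did so without P5 replicate 3 (0.57, FDR = 0.018).

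*Hoxa5* fell before birth, and its smaller differences across birth and from P5 to P8 did not pass the test. Its CPM was 106, 110.2 and 118 in the 3 libraries of E15.5, 89.1, 95.6 and 87.8 on E18.5, 70.3, 81.0 and 88.2 on P5, and 77.5, 72.9 and 78.3 on P8. All E15.5 libraries lay above all others, and the highest P5 library lay above the lowest of E18.5. The fall from E15.5 to E18.5 was 1.22-fold (log2 fold change -0.29, SE 0.07, edgeR FDR = 0.018), a call lost without E15.5 replicate 3 (FDR = 0.057), E18.5 replicate 1 (0.058) or E18.5 replicate 3 (0.054). Across birth the log2 fold change was -0.10 (FDR = 0.24, interval from -0.27 to 0.07), and from P5 to P8 it was -0.08 (FDR = 0.48). From E15.5 to P8 the fall was 1.39-fold (log2 fold change -0.47, FDR = 8.8e-05). The gene lies on chromosome 6 from base 52201754 to base 52204587 on the minus strand, and its exons share no base with another annotated gene. Its mean level stood above 85.5% of the genes of the counts table.

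*Hoxa6*, the 5′ neighbour of *Hoxa5*, had the largest fall from E15.5 to P8 among the 7 tested *Hoxa* members. It was at 4.20, 5.09 and 4.54 CPM on E15.5, 3.55, 3.14 and 3.68 CPM on E18.5, 2.59, 2.13 and 1.45 CPM on P5, and 1.17, 1.45 and 2.40 CPM on P8. Every embryonic library lay above every postnatal one. It fell 2.61-fold from E15.5 to P8 (log2 fold change -1.39, SE 0.28, edgeR FDR = 0.00056), and by 0.66 on the log2 scale from E18.5 to P5 (SE 0.27, FDR = 0.046). The second of these calls was lost with the size factors of DESeq2 (FDR = 0.056) and on the whole reads recovered from the CPM table (FDR = 0.071), and without any 1 of 9 libraries (P5 replicate 1 and P8 replicates 1 and 3 being the exceptions), with FDR up to 0.18 without P5 replicate 3. Its fall over the whole period was 0.78 on the log2 scale, with FDR = 0.073, without the 3 libraries high in thymus genes (E15.5 replicate 2 and P8 replicates 1 and 2). *Hoxa6* and *Hoxa5* have no exon base in common.

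In the *Hoxb* cluster 6 of the 7 tested members fell from E15.5 to P8, and 5 were past both cutoffs. *Hoxb5*, the paralogue of *Hoxa5*, was at 60.8, 54.8 and 65.2 CPM on E15.5, 54.2, 40.9 and 49.3 CPM on E18.5, 22.8, 25.7 and 20.5 CPM on P5, and 20.1, 19.8 and 25.2 CPM on P8. The embryonic and postnatal libraries stood apart, with the lowest embryonic value at 40.9 CPM and the highest postnatal one at 25.7 CPM. It fell 1.97-fold from E18.5 to P5 (log2 fold change -0.98, SE 0.13, edgeR FDR = 2.1e-05), just inside the cutoff of 1 on the log2 scale. From E15.5 to P8 it fell 2.64-fold (log2 fold change -1.40, SE 0.13, FDR = 6.6e-07). From E15.5 to E18.5 its log2 fold change was -0.32 (FDR = 0.09), and from P5 to P8 it was -0.10 (FDR = 0.61).

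The paralogues of group 5 can be set side by side over the same libraries. The 95% interval of the log2 fold change from E15.5 to P8 ran from -0.64 to -0.30 for *Hoxa5* and from -1.70 to -1.10 for *Hoxb5*, and these intervals did not overlap. From E18.5 to P5 the intervals were -0.27 to 0.07 and -1.27 to -0.68. The third paralogue, *Hoxc5*, was near the limit of detection and is described below. No test of the difference between genes was run.

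*Hoxb3* and *Hoxb4*, which act in hindbrain and neck patterning and in blood stem cells, both fell over the whole period. *Hoxb3* did not pass before birth (log2 fold change -0.19, FDR = 0.14). It was at 16.9, 17.1 and 17.9 CPM on E15.5, 15.8, 14.4 and 15.3 CPM on E18.5, 7.71, 8.69 and 8.27 CPM on P5, and 6.92, 7.04 and 7.71 CPM on P8. It fell by 0.80 on the log2 scale across birth (SE 0.09, edgeR FDR = 4.6e-06) and 2.27-fold from E15.5 to P8 (log2 fold change -1.19, FDR = 9.9e-08). The replicates were tight and the embryonic and postnatal libraries did not overlap. *Hoxb4* was at 26.3, 24.9 and 26.5 CPM on E15.5, 19.8, 17.8 and 18.48 CPM on E18.5, 12.6, 15 and 13.9 CPM on P5, and 10.8, 11.7 and 13.7 CPM on P8. It had its larger step before birth (log2 fold change -0.46, SE 0.09, FDR = 0.0056), another across birth (-0.35, FDR = 0.0044), and fell 2.04-fold over the whole period (-1.03, FDR = 5.6e-07), which is close to the cutoff of 1. It kept its FDR but was not past the fold cutoff with the size factors of DESeq2 (-0.99), in the DESeq2 test (-0.99), without P8 replicate 1 (-0.98) or P8 replicate 2 (-0.99), without the 3 libraries high in thymus genes (-0.87) or without P8 replicates 1 and 2 (-0.85). Of the exons of *Hoxb3*, 2250 of 4251 bases overlap the antisense gene *Hoxb3os*. The strand setting of the counting is not given in the sources used here, so reads on these bases may be uncounted or given to the other gene. *Hoxb3os* itself stayed between means of 1.04 and 1.31 CPM, and *Hoxb4* shares no exon base with another gene.

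*Hoxb6* and *Hoxb8*, on the 5′ side of *Hoxb5*, had the largest falls from E15.5 to P8 among the 7 tested *Hoxb* members of the counts table. *Hoxb6* was at 19.7, 21.4 and 23.3 CPM on E15.5, 14.3, 9.61 and 13.1 CPM on E18.5, 6.20, 9.37 and 9.88 CPM on P5, and 5.89, 7.04 and 8.46 CPM on P8. Its E15.5 libraries lay above all others, whereas the lowest E18.5 library lay below the highest of P5. It fell by 0.79 on the log2 scale before birth (SE 0.19, edgeR FDR = 0.012), by 0.46 across birth (SE 0.19, FDR = 0.041, lost without E18.5 replicate 1, E18.5 replicate 3 or P5 replicate 1 at FDR = 0.16, 0.104 and 0.16) and 2.86-fold from E15.5 to P8 (log2 fold change -1.52, FDR = 1.1e-05). *Hoxb8* was at 7.67, 10 and 8.65 CPM on E15.5, 8.09, 4.08 and 5.95 CPM on E18.5, 1.12, 2.06 and 2.45 CPM on P5, and 1.68, 2.19 and 2.27 CPM on P8. Its 6 embryonic libraries were spread over a wide range but lay above every postnatal one. It fell 3.05-fold across birth (log2 fold change -1.61, SE 0.29, FDR = 0.00029) and 4.07-fold from E15.5 to P8 (log2 fold change -2.03, SE 0.29, FDR = 3.6e-05).

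*Hoxb7* lies between these genes and did not pass the test in any comparison. Its CPM was 2.89, 3.26 and 3.3 on E15.5, 2.77, 2.43 and 2.31 on E18.5, 2.52, 2.66 and 3.53 on P5, and 2.3, 2.79 and 2.97 on P8, so that the groups overlapped. The log2 fold change from E15.5 to P8 was -0.16 (edgeR FDR = 0.46), with a 95% interval from -0.58 to 0.27 that did not reach those of *Hoxb6* (from -1.95 to -1.08) and *Hoxb8* (from -2.70 to -1.36). Its paralogue *Hoxa7* likewise passed no comparison with all libraries in edgeR, while *Hoxa6* and *Hoxb6*, the neighbours at position 6, were both past both cutoffs. Position in the row and change therefore did not follow a single order. *Hoxb2*, at the 3′ side, fell less, by 0.72 on the log2 scale from E15.5 to P8 (SE 0.18, FDR = 0.0027), with 5.11 ± 0.552 CPM on E15.5 and 2.95 ± 0.604 CPM on P8. That call was lost without P8 replicates 1 and 2 (FDR = 0.11). Its step across birth passed only without P8 replicate 3 (FDR = 0.046) among the fits with 1 library left out, and 953 of its exon bases overlap *Hoxb3os*.

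**Figure D3:**
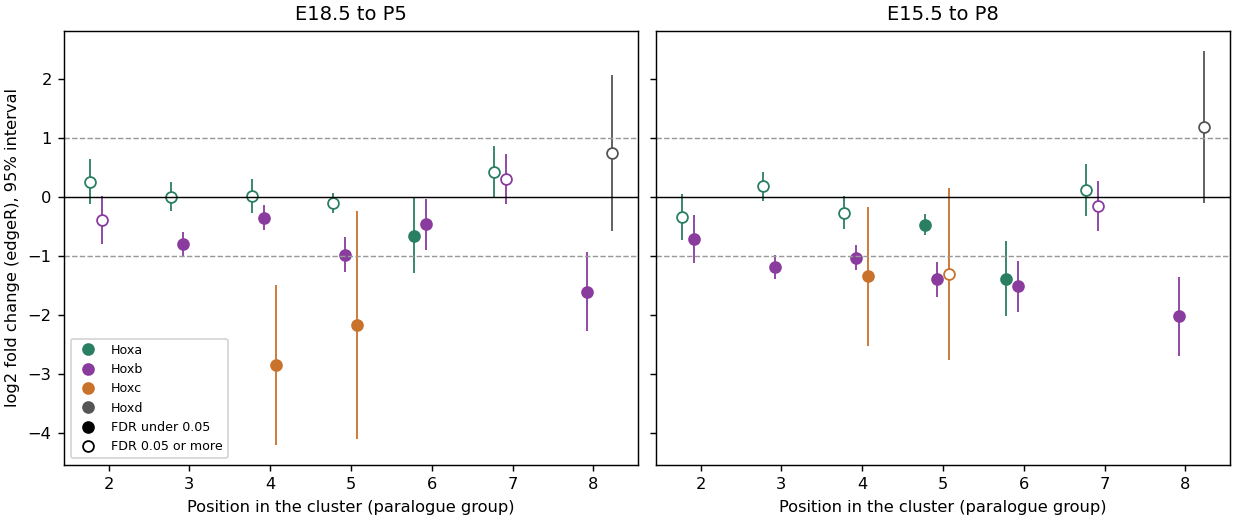
Log2 fold change of 16 tested *Hox* genes (y axis, edgeR, whiskers 95% intervals) by its position in the cluster (x axis) for the step across birth and for E15.5 to P8; filled points have an FDR under 0.05 and dashed lines mark the cutoff of 1. *Hoxb* genes lie below 0 at positions 2 to 6 and 8, and the position 7 genes of both clusters have open points in both panels.

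The *Hoxc* genes were low and their P8 values were divided. *Hoxc4* was at 2.11, 1.16 and 2.26 CPM on E15.5, 1.29, 0.995 and 1.30 CPM on E18.5, 0.0963, 0.0619 and 0.296 CPM on P5, and 0.677, 1.11 and 0.279 CPM on P8. It fell across birth (log2 fold change -2.85, SE 0.59, edgeR FDR = 0.0008), with all 3 P5 libraries under the lowest E18.5 one. The summed cartilage genes moved in the same step, from between 37.2 and 47.9 CPM on E18.5 to between 4.95 and 15.8 CPM on P5, and their part in the *Hoxc* values was not tested. *Hoxc5* was at 1.69, 2.18 and 1.65 CPM on E15.5, 0.493, 0.287 and 0.366 CPM on E18.5, 0.0482, 0.186 and 0.0164 CPM on P5, and 1.03, 0.980 and 0.115 CPM on P8. Its 3 groups up to P5 did not overlap with each other, and it fell before birth (log2 fold change -2.26, SE 0.67, FDR = 0.031) and across it (-2.17, SE 0.84, FDR = 0.034). The second of these calls was lost without E18.5 replicate 1 (FDR = 0.089), E18.5 replicate 3 (0.057), P5 replicate 1 (0.099) or P5 replicate 3 (0.114). *Hoxc4* entered the test through its embryonic libraries and *Hoxc5* through those of E15.5. The filter on low values therefore favoured falls from these time-points, and such falls are not independent of it. P8 replicate 2 of *Hoxc4* and P8 replicate 1 of *Hoxc5* also reached 1 CPM, though the 3 E15.5 libraries were enough to pass. From P5 to P8 both rose, *Hoxc4* by a log2 fold change of 2.12 (SE 0.59, FDR = 0.029) and *Hoxc5* by 3.12 (SE 0.81, FDR = 0.022). In P8 replicate 3, however, *Hoxc4* and *Hoxc5* were within the range of the P5 libraries. Over the whole period *Hoxc4* fell (log2 fold change -1.35, FDR = 0.029, lost without E15.5 replicate 1 or 3 or P8 replicate 1 or 3, at FDR between 0.064 and 0.084) and *Hoxc5* did not pass (-1.30, FDR = 0.077) unless P8 replicates 1 and 2 were left out (-3.90, FDR = 0.0031).

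The 2 P8 libraries with the high *Hoxc* values were also high in marker genes of tissues other than lung. P8 replicates 1 and 2 had 779 and 601 summed CPM of 8 marker genes of oesophagus and stomach epithelium, where P8 replicate 3 had 8.33 and the other 9 libraries between 1.82 and 5.31. Of these 8 genes 3 were tested, and 2 of the 3 rose from P5 to P8. The filter leaves out genes high in 2 libraries alone, and the sum does not show how many of the 8 took part. P8 replicates 1 and 2 had 365 and 739.6 CPM of brown fat genes. P8 replicate 3 had 20.3, and P5 replicates 1, 2 and 3 had 5.09, 28.5 and 138. In P8 replicates 1 and 2, thymus and T-cell genes were at 195 and 369.8 CPM beside 19.6 in replicate 3. Cartilage genes (68.5 and 113 CPM beside 5.33) and genes of neurons and glia (68.7 and 81.9 CPM beside 9.66) followed the same libraries. Without these 2 libraries the log2 fold changes from P5 to P8 were 0.82 for *Hoxc4* (edgeR FDR = 0.63) and 0.51 for *Hoxc5* (FDR = 0.84), and no member was past both cutoffs. With either of them left out alone both calls were lost but the log2 fold changes stayed large: without P8 replicate 1 they were 2.1 for *Hoxc4* (FDR = 0.069) and 2.71 for *Hoxc5* (FDR = 0.072), and without P8 replicate 2 they were 1.60 (FDR = 0.129) and 2.81 (FDR = 0.075). The count was also 0 without P5 replicate 1, at 1.88 (FDR = 0.097) and 2.86 (FDR = 0.076). It was 1 without P5 replicate 2 or P5 replicate 3. In the fit without both, P8 replicate 3 stood alone for its time-point and was taken to vary like the other groups. The part of other tissues in the *Hoxc* values was not tested beyond leaving these libraries out.

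*Hoxd8*, the single *Hoxd* gene of the counts table, showed the same libraries high. It was at 0.452, 1.18 and 0.374 CPM on E15.5, 0.575, 0.249 and 0.641 CPM on E18.5, 0.546, 0.723 and 1.05 CPM on P5, and 1.74, 2.01 and 0.559 CPM on P8. E15.5 replicate 2, its highest embryonic library, had 30.0 CPM of thymus and T-cell genes, beside 1.03 and 0.983 in the other libraries of that time-point. No comparison passed the FDR, and the log2 fold change from E15.5 to P8 was 1.19 with a 95% interval from -0.10 to 2.47 (edgeR FDR = 0.069). Without P8 replicates 1 and 2 it was -0.18 (FDR = 0.84), so the direction turned. Without E15.5 replicate 2 or P8 replicate 3 it passed the FDR, at 1.87 (FDR = 0.012) and 1.57 (FDR = 0.014). *Hoxd8* reached 1 CPM only in E15.5 replicate 2, P5 replicate 3 and P8 replicates 1 and 2. It entered the test through these libraries, so a rise to P8 is not independent of the filter. The summed skeletal muscle genes had the order of *Hoxd8* within E15.5 (21.7, 49.99 and 6.98 CPM) and P5 (6.90, 12.5 and 164 CPM). They did not have it within E18.5 (5.75, 4.92 and 4.71 CPM). On P8 they were at 532 and 141 CPM in replicates 1 and 2, the reverse of the order of *Hoxd8* there, beside 7.33 in replicate 3. The cardiac list was at 942 and 1181 CPM in E15.5 replicates 1 and 2 beside 55.0 in replicate 3. The part of these tissues in the *Hoxd8* values was not tested beyond leaving libraries out.

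**Figure D4:**
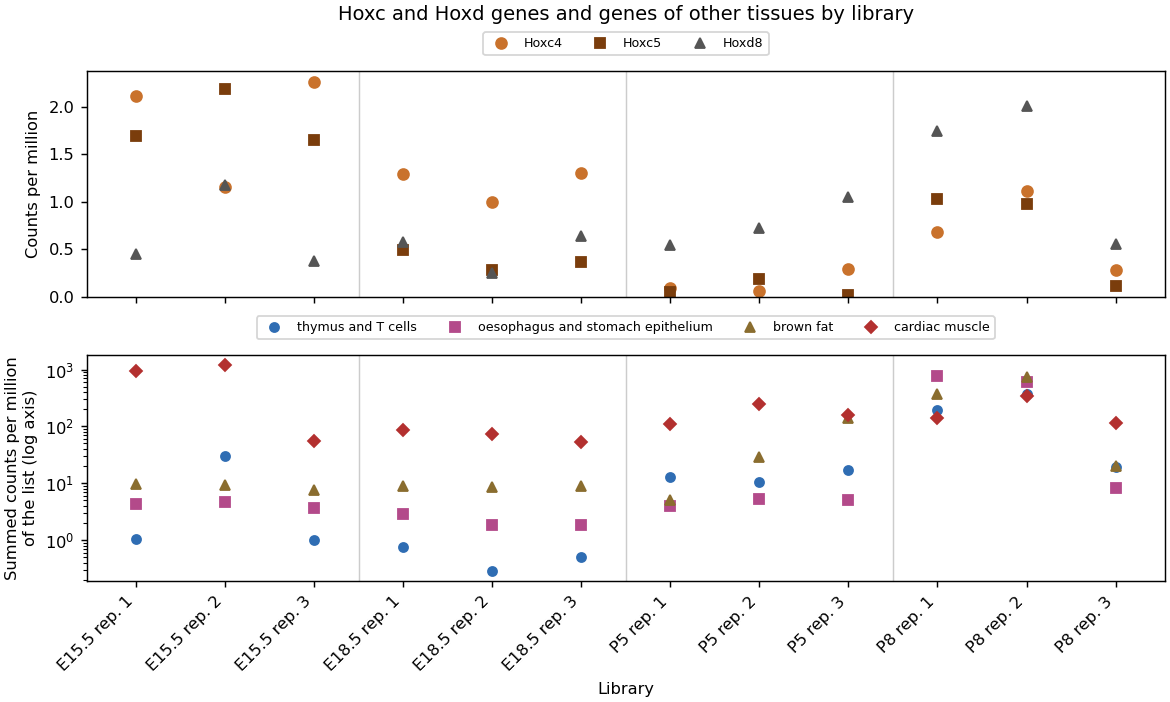
CPM of *Hoxc4*, *Hoxc5* and *Hoxd8* (upper panel, from 0) and summed CPM of marker genes of other tissues (lower panel, log axis) in each of the 12 libraries along the x axis; each point is 1 library. In P8 replicates 1 and 2 the 3 *Hox* genes lie above P8 replicate 3, and the thymus, oesophagus and stomach, and brown fat lists do so too.

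The 22 members outside the counts table had few or no reads. No read fell on 7 of them in any library (*Hoxa11*, *Hoxc9*, *Hoxc10*, *Hoxc13*, *Hoxd3*, *Hoxd11* and *Hoxd12*), which allows up to 3 reads over the 12 libraries, or 0.0045 CPM, as far as counting error goes. In 5 more, the sum over the 3 libraries of a time-point never passed 3 reads (*Hoxb13*, *Hoxc11*, *Hoxc12*, *Hoxd4* and *Hoxd13*). The other 10 had more than 3 reads in at least 1 time-point. For *Hoxd3* and *Hoxd4* a count near 0 is not a measure of level: 2634 of 4191 exon bases of *Hoxd3* and 1542 of 2948 of *Hoxd4* overlap other annotated genes, each other included, and reads that fit more than 1 gene are left uncounted in the default mode of HTSeq. No exon base is shared by *Hoxc9*, *Hoxc13* and *Hoxd12*, which were at 0 in all 12 libraries.

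The most abundant of these members was *Hoxb9*, next to *Hoxb8* on the 5′ side. It had 75, 47 and 67 reads in the E15.5 libraries (1.21, 0.924 and 1.32 CPM), 11, 27 and 21 reads on E18.5, 2, 2 and 0 reads on P5, and 0, 12 and 2 reads on P8. The E15.5 libraries lay above all others, and the P5 libraries were at or near 0. In a fit of the whole reads recovered from the CPM table, over 26819 genes, *Hoxb9* fell across birth (log2 fold change -3.78, SE 0.96, edgeR FDR = 0.0043) and from E15.5 to P8 (-3.76, SE 0.82, FDR = 0.0012). Its single higher postnatal library, P8 replicate 2, was among those with genes of other tissues. *Hoxc6* had 58 reads over the E15.5 libraries, 23 on E18.5, 6 on P5 and 46 on P8, and *Hoxc8* had 8, 0, 0 and 33, all 33 in P8 replicate 2. *Hoxd9* had 53, 40, 80 and 47 reads, and *Hoxa9* 29, 17, 11 and 33, of which 26 were again in P8 replicate 2. At positions 10 to 13 no member had more than 9 reads in any library.

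*Hox* proteins bind DNA with partners of the TALE homeodomain family, and 9 genes of that family (Pbx, Meis and Pknox) were read on the same fit. From E15.5 to P8, 7 of the 9 fell, 1 rose and 1 did not pass, with a median log2 fold change of -0.61 beside -0.02 over all genes, where 38.7% of genes fell. *Meis2* was past both cutoffs, from 57.3 ± 1.03 CPM on E15.5 to 26.3 ± 1.32 CPM on P8 (log2 fold change -1.04), and *Meis1*, at 87.1 ± 2.90 and 43.0 ± 6.39 CPM, had a log2 fold change of -0.94. *Pknox2* rose, from 17.6 ± 1.45 to 24.8 ± 0.826 CPM (log2 fold change 0.57). Across birth 5 fell and 1 rose, where 35.7% and 35.4% of all genes did, before birth 3 fell and none rose in the edgeR fit (*Pknox2* had an FDR of 0.0501), and from P5 to P8 3 fell.

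Polycomb proteins keep *Hox* genes silent and Trithorax proteins keep them active, and 34 genes of these groups were tested. Over the whole period 20 fell (38.7% of all genes did), 9 rose (37.6% of all genes did) and 5 did not pass, with a median log2 fold change of -0.39. Past both cutoffs were *Cbx2* (81.1 ± 3.41 CPM on E15.5 and 21.9 ± 2.03 on P8, log2 fold change -1.82), *Pcgf6* (-1.54), *Ezh2*, the methyltransferase of Polycomb complex PRC2 (109 ± 4.66 and 38.6 ± 5.17 CPM, -1.42), and, in the other direction, *Cbx7* (4.81 ± 0.211 and 14.2 ± 1.08 CPM, 1.63). The Cbx proteins are alternative readers within Polycomb complex PRC1, so *Cbx2* and *Cbx7* are paralogues that went in opposite directions. Across birth 18 fell, 5 rose and 11 did not pass, where 35.7% of all genes fell and 35.4% rose, whereas before birth and from P5 to P8 no more than 4 moved in either direction.

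Retinoic acid switches on 3′ *Hox* genes in the embryo, and 16 of 18 genes for its synthesis, breakdown, binding and receptors were tested. From E15.5 to P8, 5 fell and 7 rose, where 38.7% of all genes fell and 37.6% rose, shares near those of the list, and the median log2 fold change was -0.02. *Aldh1a1*, a synthesis enzyme, rose from 24.6 ± 2.24 to 265 ± 34.5 CPM (log2 fold change 3.5), and *Dhrs3*, which turns retinal back into retinol, from 14.3 ± 3.04 to 66.4 ± 3.72 CPM (2.29). *Crabp2*, a binding protein, fell from 3.87 ± 1.5 CPM on E15.5 to 0.224 ± 0.148 on P8 (-4.03). The receptor gene *Rarb*, named after its values were seen, fell across birth, from 18.53 ± 1.21 to 7.48 ± 0.516 CPM (log2 fold change -1.22). *Rxrg*, a receptor gene also active in muscle, had a log2 fold change of 2.95 in that step, at a level of 1.64 ± 0.646 CPM on P5.

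Other genes known to act on *Hox* clusters in the early embryo were partly absent: 9 of 12 were tested, and of these 6 fell and 3 rose from E15.5 to P8, where 38.7% of all genes fell and 37.6% rose. *Gmnn*, which encodes geminin, was at 43.7 ± 2.74 CPM on E15.5 and 15.8 ± 3.29 CPM on P8 (log2 fold change -1.39). *Gata4* fell from 19.6 ± 9.52 to 5.85 ± 2.56 CPM (-1.67), and *Zbtb16* rose from 1.19 ± 0.374 to 3.23 ± 0.297 CPM (1.51). The summed cardiac genes were at 942 and 1181 CPM in E15.5 replicates 1 and 2 beside 55.0 in replicate 3. The part of cardiac tissue in the *Gata4* values was not tested. *Egr2*, which drives *Hox* genes in the hindbrain and is also active in myeloid cells, rose (3.62), and the summed leukocyte markers went from between 57.1 and 88.2 CPM on E15.5 to between 452 and 615 CPM on P8. The part of leukocytes in these values was not tested.

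Of 21 listed non-coding and antisense genes inside the clusters, 5 were tested and 8 had no read. *Hoxb5os*, which overlaps 100 exon bases of *Hoxb5* on the other strand, was at 4.34 ± 0.805 CPM on E15.5 and 1.92 ± 0.477 CPM on P8 and was past both cutoffs (log2 fold change -1.10, edgeR FDR = 0.00079). *Hoxaas2* fell (-0.53, FDR = 0.031), and *Hoxaas3*, *Hoxb3os* and *Hotairm1* did not pass. *Hotairm1* was at 1.36 ± 0.417 CPM on E15.5 and 1.37 ± 0.140 CPM on P8. Where exons overlap, reads of these genes and of their *Hox* partners may be uncounted or given to the other gene, as the strand setting is not known.

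Genes that lie beside the clusters served as a look at the neighbourhood. Of 16 listed, 13 were tested, and from E15.5 to P8 5 fell and 8 rose, where 38.7% of all genes fell and 37.6% rose, with a median log2 fold change of 0.55. *Cbx5*, next to *Hoxc*, fell from 432 ± 47.6 to 148 ± 13.3 CPM (log2 fold change -1.47), while *Calcoco1*, another listed gene, rose (1.10). *Skap1* and *Ttll6*, next to *Hoxb*, rose (3.37 and 4.87), from levels under 1 CPM on E15.5, while *Hoxb* genes fell. *Skap1* encodes an adaptor of T cells and varied with the thymus genes, at 6.15 ± 4.19 CPM on P8. The part of T cells in it was not tested.

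**Figure D5:**
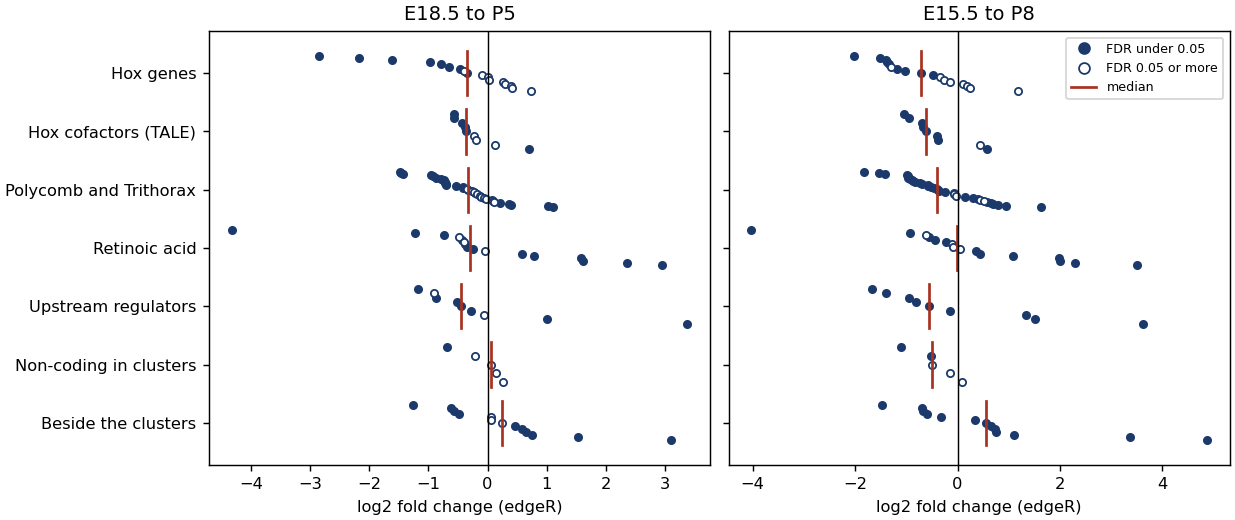
Log2 fold change (x axis, edgeR) of each tested gene of the *Hox* clusters and of the 6 related lists (y axis) for the step across birth and for E15.5 to P8; filled points have an FDR under 0.05 and the vertical line in each row is the median. The *Hox* genes and their TALE cofactors have medians of -0.72 and -0.61 from E15.5 to P8, and the retinoic acid list has points on both sides of 0.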

How the data were processed

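RNA of whole mouse lungs was sequenced as 101 nt read pairs. The authors aligned the reads to mm10 with TopHat2 2.1.1 and Bowtie2 2.3.4, counted reads per Gencode vM14 gene with HTSeq 0.10.0, and deposited unnormalized counts of the genes kept as expressed. The authors also deposited CPM values per gene. CPM times mapped reads gave whole reads in 100% of values (tolerance 0.01). Mapped reads ranged from 48436716 to 62279460, and intervals from zero counts cover counting error only. The deposited percent-spliced-in table was not used.

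Here, groups came from the sample titles. Counts were fitted with edgeR 4.0.16 (R 4.3.3; quasi-likelihood test, TMM, 1 fit of 12 libraries, genes with at least 1 CPM in 3 libraries). The code was tested on simulated data. Standard errors are the log2 fold change over the square root of the F statistic, and 95% intervals use 8 degrees of freedom. CPM means were not TMM-scaled. The gene symbols were matched for 51632 of 51825 genes. Values per library are given for members past both cutoffs in a comparison, for paralogue group 5 and for the highest member of each cluster, and *Hoxb7*, *Hoxb9* and part of *Hoxa4* were added after their values were seen. From other lists, up to 4 genes with the largest changes past both cutoffs were named, with the non-coding neighbours of named members; *Meis1*, *Pknox2*, *Rarb* and the other antisense genes were added likewise. The values of some single genes are not reported here. The members and lists were chosen with earlier results of these data known. Alternatives were other size factors, no filter, DESeq2 1.42.0, recovered reads, a replicate block and libraries left out.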

Additional observations from a re-analysis of the deposited data

Results flagged for a closer look

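Among the members outside the counts table, 10 had more reads summed over the 3 libraries of a time-point than the 3 that a count of 0 allows. These genes entered no test on the deposited counts. *Hoxb9* had 189 reads at E15.5, *Hoxd9* 80 at P5 and *Hoxc6* 58 at E15.5. *Hoxa9* and *Hoxc8* had 33 each at P8, of which 26 and 33 were in P8 replicate 2. *Hoxb1* had 15 at P5, *Hoxd10* 12 at E15.5, *Hoxa10* 9 at E15.5, all in E15.5 replicate 2, *Hoxd1* 9 at E15.5 and *Hoxa13* 5 at E18.5, all in E18.5 replicate 2.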

How the results depend on the processing

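With an FDR under 0.05 alone, 5 members in place of 1 changed from E15.5 to E18.5 and 8 in place of 3 from E18.5 to P5. Leaving out 1 library at a time gave 0 to 1 members past both cutoffs before birth, 2 to 4 across birth, 0 to 2 from P5 to P8 and 5 to 8 from E15.5 to P8. From P5 to P8 the count was 0 without the 3 libraries high in thymus genes and 0 without P8 replicates 1 and 2, an alternative chosen after seeing the data. Other size factors, no filter, DESeq2 and recovered reads kept the 4 counts within 1.5 times. *Hoxb3*, *Hoxb5*, *Hoxb6* and *Hoxb8* were past both cutoffs from E15.5 to P8 under all 20 alternatives to the fit.

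Of 24 pairs of gene and comparison under the FDR threshold, 13 kept direction and side of the threshold in all alternatives and 0 reversed. Among pairs that did not pass, signs turned for *Hoxd8* from E15.5 to E18.5 (0.25 without the 3 thymus-rich libraries, and between -0.71 and 0.24 with 1 library left out), *Hoxd8* from P5 to P8 (-0.49 without the 3 and -0.49 without the 2 libraries), *Hoxd8* from E15.5 to P8 (-0.18 without the 2), *Hoxb5* from P5 to P8 (0.11 and 0.10), *Hoxa2* (0.056) and *Hoxb7* (0.025) from E15.5 to P8 without the 3. The log2 change of the summed *Hoxc* CPM was -2.94 without the 3 and -2.92 without the 2 libraries, beside -1.13, and that of *Hoxd* -0.36 and -0.70, beside 0.65. With 1 library left out they ranged from -1.63 to -0.69 and from 0.41 to 1.04. The cause of these moves was not tested.

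Deviations of same-numbered libraries from their group means correlated between -0.34 and 0.30 (median 0.0065), so the numbers did not pair the samples. With the replicate block the 4 counts were 1, 3, 2 and 7. Under the block *Hoxa6* from E18.5 to P5 (FDR = 0.072) and *Hoxc4* from E15.5 to P8 (FDR = 0.061) no longer passed. *Hoxc5* and *Hoxa2* from E15.5 to P8 passed under it (FDR = 0.04 and 0.045). No scaling moved the median log2 fold change of all genes by over 0.1. Genes under about 1 CPM rest on few reads per library, which limits their precision.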

Other observations

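The 6 genes of lung identity summed to between 1208 and 1464 CPM at E15.5 and between 12270.1 and 14866 CPM at P8, and lung markers were present in every library. Of these 6 genes, 3 rose, 2 fell and 1 did not pass from E15.5 to P8 (median log2 fold change 0.15). The 6 smooth muscle genes summed to between 667 and 847 CPM in all 12 libraries, and 3 of them rose from E15.5 to P8. The 6 B cell genes rose from between 3.10 and 6.00 CPM at E15.5 to between 109 and 134.5 CPM at P5 (6 of 6 with an FDR under 0.05 across birth), and the 5 erythroid genes from between 2131 and 2836 to between 7272 and 12608 CPM (5 of 5 across birth). The cartilage list lay between 61.9 and 67.8 CPM at E15.5 and between 4.95 and 15.8 CPM at P5. Of the 10 mesenchymal genes, 5 rose and 2 fell from E15.5 to P8 and 3 did not pass, beside 9 of 17 *Hox* members that fell. The part of cell makeup in the *Hox* values was not tested.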
